A study of Mus musculus with 4 samples.

Results

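The 10 genes described here carry out the MHC class I antigen presentation pathway of the mouse: the heavy chains *H2-K1* and *H2-D1*, their light chain *B2m*, the peptide transporter genes *Tap1* and *Tap2*, the peptide-loading gene *Tapbp*, the immunoproteasome genes *Psmb8*, *Psmb9* and *Psmb10*, and the regulator *Nlrc5*. They were taken by symbol as named genes of the pathway, with earlier results of these data known, and all 10 were among the 18364 genes of the deposited table. The table holds bulk RNA-seq of large peritoneal macrophages (LPMs), which reside in the peritoneal cavity, from 8-week-old C57BL/6 mice. Of the 4 libraries, 2 were labelled WT (wild type) and 2 were labelled Rxra-KO (*Rxra*-/-, lacking retinoid X receptor alpha). Per the methods of the study, the knockouts were *Rxra* fl/fl mice with Cre expressed from the *LysM* (*Lyz2*) locus, which is active in myeloid cells, and the controls were *Rxra* fl/fl littermates without Cre, so that all mice carried the floxed alleles and the presence of Cre and the loss of *Rxra* cannot be told apart. The cells had been sorted as F4/80+, CD102+ and negative for MHC class II at the surface. The labels do not say whether the libraries came from separate mice, and *p* values then measure only the spread between these samples.

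MHC class I molecules show peptides from the inside of a cell to CD8+ T cells. Proteasomes cut proteins into peptides, the TAP transporter carries these into the endoplasmic reticulum, and the peptide-loading complex places them on a heavy chain paired with β2-microglobulin. Interferon-γ is known to raise the whole pathway, to exchange the catalytic subunits of the constitutive proteasome for those of the immunoproteasome, and to induce NLRC5, a transactivator that acts on class I promoters. Macrophages express the pathway at rest, as nearly all nucleated cells do.

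All 10 class I genes had a lower mean in the libraries labelled Rxra-KO, but only *Tap1* and *Psmb8* passed the test, and 1 WT library carried much of the difference. Values are normalised read counts, that is, reads scaled to a common library size (CPM with a TMM factor), and a gene was called at a limma adjusted *p* under 0.05 over all genes with a log2 fold change of at least 0.6 in size. The 2 called members were both lower in Rxra-KO, where 0.969% of all genes tested were called lower and 2.29% were called in either direction. The median log2 fold change of the 10 members was -0.41, against 0.02 over all genes, and 5 of them had an unadjusted *p* under 0.05 in limma, as did 1854 of all 18364 genes. Both Rxra-KO libraries lay below both WT libraries for 3 of the 10 members, *Tap1*, *Tap2* and *Psmb9*, and for 19.3% of all genes. WT replicate 2 gave the highest value of the 4 libraries for 10 of 10 members, whereas it was the highest for 26.77% of the 10049 genes with a mean value of at least 10. In bulk RNA, fewer expressing cells and less RNA per cell cannot be told apart.

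**Figure D1:**
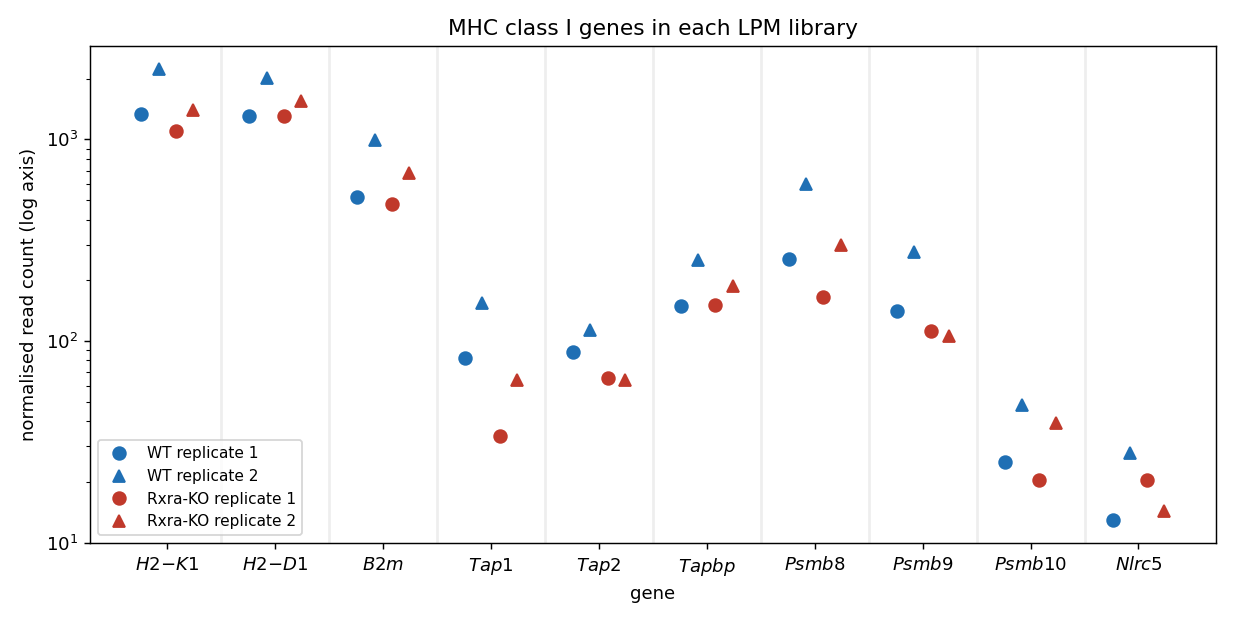
Normalised read counts of the 10 class I genes in each library, on a log axis, with WT in blue, Rxra-KO in red, circles for replicate 1 and triangles for replicate 2. The blue triangle, WT replicate 2, is the highest point for all 10 genes, and both red points lie below both blue points for *Tap1*, *Tap2* and *Psmb9*.

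The libraries held from 629030 to 1047021 recovered reads, which is shallow, and 1 read corresponded to 0.993 to 1.51 units of the normalised scale. *Rxra* itself was not reduced in libraries labelled Rxra-KO, with 20 and 28 reads in WT versus 33 and 77 in Rxra-KO (log2 fold change 0.99, limma adjusted *p* = 0.183), so directions here are between libraries as labelled. These counts are over the whole gene and do not single out the deleted exons. By qPCR around those exons, the study reported less *Rxra* in LPMs of mice in which *Rxrb* was deleted as well. The LPM label was checked on 9 markers measured under their current symbol, whose summed level was 50749 and 48380 CPM in WT versus 26996 and 26721 CPM in Rxra-KO, and 6 of the 9 were called lower. Most of that sum was *Prg4* and *Lyz2*, the latter the locus that carries Cre, and the other 7 markers summed to 7539.7 and 8221 CPM in WT versus 4279.6 and 4799 CPM in Rxra-KO. *Csf1r* and *Cd14* were not called, with 900 and 978 reads in WT versus 965 and 1648 for *Csf1r* and 76 and 121 versus 131 and 177 for *Cd14*. The sort marker F4/80, listed as *Emr1*, was called lower (log2 fold change -0.89, limma adjusted *p* = 0.00692). *Gata6*, a transcription factor that defines LPMs, had 35 and 65 reads in WT versus 3 and 24 in Rxra-KO. Of 10 markers of small peritoneal macrophages and dendritic cells, 3 (*Ccr2*, *Cd209a* and *Irf4*) were called higher in Rxra-KO. By log2 fold change 8 of the 10 were higher and 2 lower. The 10 markers summed to 159 and 109.8 CPM in WT against 582 and 833 CPM in Rxra-KO. Most of the Rxra-KO sum was *Ccr2*, with 50 and 23 reads in WT versus 249 and 659 in Rxra-KO. The part of these shifts in the class I values was not tested.

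Among the heavy chains and their light chain, no gene was called. *H2-K1*, which encodes one of the classical heavy chains, had normalised read counts of 1332 and 2246 in WT versus 1099.9 and 1391 in Rxra-KO. WT replicate 2 stood above the other 3 libraries, and WT replicate 1 lay between the Rxra-KO libraries. The log2 fold change of *H2-K1* was -0.48 (standard error of the log2 fold change, SE, 0.22, 95% interval -0.91 to -0.05), with a limma adjusted *p* = 0.373. *H2-D1*, the other classical heavy chain gene of this strain, had 1303 and 2025 in WT versus 1303 and 1555 in Rxra-KO, so that WT replicate 1 and Rxra-KO replicate 1 were nearly equal. Its log2 fold change was -0.19 (SE 0.22, limma adjusted *p* = 0.893). *B2m*, which encodes the light chain that all class I heavy chains need, had 520.1 and 995 in WT versus 477 and 685 in Rxra-KO. The groups overlapped, and the log2 fold change of *B2m* was -0.33 (95% interval -0.77 to 0.11, limma adjusted *p* = 0.696). The intervals of all 3 genes include a fall by 0.6 on the log2 scale, the size a call required.

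*H2-K1* and *H2-D1* are close copies in sequence, and the counting could have moved reads between them. Of the 31-base words of their transcripts (GENCODE M21 gene models of GRCm38), 20.3% of the 1894 words of *H2-K1* and 27.9% of the 2275 words of *H2-D1* also occurred in another gene, most often in each other, while none of the 830 words of *B2m* did. The heavy chains were therefore also summed within each library. The 13 listed H2-K, H2-D, H2-Q, H2-T and H2-M genes in the table summed to 3673 and 5682 CPM in WT versus 3356 and 3577 CPM in Rxra-KO. Both Rxra-KO sums lay below both WT sums, and Rxra-KO replicate 2 came close to WT replicate 1. The difference was -0.40 on the log2 scale, with an exact permutation *p* = 0.33, the smallest that 2 libraries against 2 allow, and it was -0.08 without WT replicate 2. Summed on the deposited scale, which includes the scaling factors, the same genes gave 3639 and 5847 in WT versus 3188 and 3726 in Rxra-KO, and the groups then overlapped (exact permutation *p* = 0.667).

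The stretches in front of the start sites of *H2-K1*, *H2-D1* and *B2m* are shown because the light chain pairs with each heavy chain, and class I promoters are known to carry elements for NF-κB, interferon regulatory factors and the complex that NLRC5 joins. They were read from the RefSeq promoter windows of GRCm38.p6, which cover 250 bases before to 50 after each start and were found for 8 of the 10 members (*Tap2* and *Nlrc5* were not matched). For *H2-K1* the first of its listed windows was taken. Capitals mark, on either strand, the letters GGGNNTTCC (NF-κB type site), AANNGAAA (interferon regulatory factor core), TGACG (X2 box core) and CCAAT (Y box core), and none of the marked matches overlaps another. The stretches lie at chr17:34000353-34000464 on the minus strand for *H2-K1*, at chr17:35262917-35263051 on the plus strand for *H2-D1* and at chr2:122147544-122147644 on the plus strand for *B2m*, each written 5′ to 3′ in the direction of the gene.
H2-K1: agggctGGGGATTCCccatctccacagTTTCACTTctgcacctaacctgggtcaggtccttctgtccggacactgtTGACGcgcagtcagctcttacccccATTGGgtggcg
H2-D1: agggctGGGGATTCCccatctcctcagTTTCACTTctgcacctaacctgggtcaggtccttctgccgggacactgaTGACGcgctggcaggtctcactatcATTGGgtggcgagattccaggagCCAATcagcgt
B2m: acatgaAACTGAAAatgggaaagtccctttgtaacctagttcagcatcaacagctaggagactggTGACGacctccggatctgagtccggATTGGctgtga
Where the *H2-K1* and *H2-D1* stretches were aligned, 101 of 112 paired bases (90.2%) were identical. The NF-κB type letters were in 2 of the 8 member windows, *H2-K1* and *H2-D1*, and in 5.82% of all 32851 windows. Only this pattern of 9 letters was searched, so a window without it may still hold an NF-κB site of another length. The interferon regulatory factor core was in 3 of 8, those of *H2-K1*, *H2-D1* and *B2m*, and in 23.9% of all windows. X2 box letters were in 5 of 8 member windows against 20.8% of all windows, and Y box letters in 6 of 8 against 37.4%. The windows of *Tap1* and *Psmb9* overlap, so the same X2 box and Y box matches counted for both genes. With *H2-K1* and *H2-D1* also close copies, the 8 windows are not separate cases. A match of such short letters is a description and not evidence of binding.

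The peptide transporter gave the member with the smallest adjusted *p*. *Tap1*, one of the transporter subunits, had normalised read counts of 82.5 and 154 in WT versus 33.9 and 64.1 in Rxra-KO. Both Rxra-KO libraries lay below both WT libraries, and replicate 2 was higher than replicate 1 in each group. *Tap1* fell from 118 ± 50.2 to 49.0 ± 21.3 (SD, n = 2), which is a log2 fold change of -1.25 (SE 0.32, limma adjusted *p* = 0.00655). Over the alternatives its adjusted *p* ranged from 0.00116 to 0.593. The call was lost without WT replicate 2 (log2 fold change -0.81), without Rxra-KO replicate 1 (-0.80) and with DESeq2 (adjusted *p* = 0.109), and held with edgeR (adjusted *p* = 0.00463). *Tap2*, the partner subunit, had 88.6 and 113 in WT versus 65.5 and 64.1 in Rxra-KO. Its groups did not overlap either and its Rxra-KO libraries were nearly equal, but the log2 fold change of -0.62 (SE 0.30) did not pass (limma adjusted *p* = 0.449). *Tapbp*, which encodes tapasin, the bridge between TAP and the heavy chain, had 149 and 252 in WT versus 151 and 188 in Rxra-KO. For *Tapbp* both Rxra-KO values lay between the WT values, and its log2 fold change was -0.20 (limma adjusted *p* = 0.909). Of the transcript words of *Tapbp* and *Tap2*, 26.4% and 15.0% also occurred in other gene models, so part of their reads may have been counted elsewhere.

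Of the immunoproteasome genes, *Psmb8* was called. *Psmb8*, which encodes the β5i subunit, had 255 and 604 in WT versus 165 and 300.4 in Rxra-KO, so that Rxra-KO replicate 2 was higher than WT replicate 1. It fell from 429 ± 246 to 233 ± 95.9 (SD, n = 2), which is a log2 fold change of -0.82 (SE 0.24, limma adjusted *p* = 0.0445), although the groups overlapped and the SD in WT was larger than the difference of the means. Over the alternatives its adjusted *p* ranged from 0.000395 to 0.940. The call was lost without WT replicate 2 (log2 fold change -0.20) and without Rxra-KO replicate 1 (-0.38), with DESeq2 (adjusted *p* = 0.856) and where only the 10049 genes with a mean value of at least 10 were tested. *Psmb9*, for the β1i subunit, had 142 and 276 in WT versus 112 and 106 in Rxra-KO, with no overlap and a larger log2 fold change of -0.85 (SE 0.27), and it narrowly missed the threshold in limma (adjusted *p* = 0.0614) while edgeR put it at an adjusted *p* = 0.0195. *Psmb10*, for the β2i subunit, had 25.0 and 48.3 in WT versus 20.3 and 39.2 in Rxra-KO. Its replicates differed within each group by more than the groups did, and its log2 fold change of -0.29 rested on 13 to 44 reads a library (limma adjusted *p* = 0.927).

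*Tap1* and *Psmb9* lie head to head and have 225 bases between their start sites, a stretch shown because it is the known shared promoter of both. It is chr17:34187331-34187555 of GRCm38.p6, written on the plus strand, the strand of *Tap1*, with the same 4 sets of letters searched and matches in capitals.
Psmb9-Tap1: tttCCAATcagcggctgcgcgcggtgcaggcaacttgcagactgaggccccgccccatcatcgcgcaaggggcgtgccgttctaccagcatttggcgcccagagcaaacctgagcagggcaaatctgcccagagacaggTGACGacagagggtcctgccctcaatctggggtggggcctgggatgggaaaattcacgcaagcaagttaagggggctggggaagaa
This stretch held 1 match to the Y box letters and 1 to the X2 box letters, and none to the other sets. Read on the *Tap1* strand, the Y box match lies near the *Psmb9* start. The 2 genes also share 182 of their 31-base transcript words when both strands are searched, 6.11% of the words of *Tap1* and 10.8% of those of *Psmb9*. Strand was not stated for the counting, so reads from that overlap cannot be assigned to either gene.

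To compare the immunoproteasome with the subunits it replaces, *Psmb5*, *Psmb6* and *Psmb7* were taken beside *Psmb8*, *Psmb9* and *Psmb10* within each library, which cancels the scaling. *Psmb5* (constitutive β5) had normalised read counts of 170.3 and 169.8 in WT versus 133 and 227 in Rxra-KO, and *Psmb6* (constitutive β1) had 281 and 369 against 221 and 317. *Psmb7* (constitutive β2) had only 5 and 12 reads in WT versus 2 and 6 in Rxra-KO. None of these 3 genes was called. The ratio of summed immunoproteasome reads to summed constitutive reads was 0.917 and 1.68 in WT versus 0.831 and 0.808 in Rxra-KO. The Rxra-KO ratios were close to each other and to that of WT replicate 1, and that of WT replicate 2 was the highest. These are ratios of reads without correction for length. The exon models had 1628 (*Psmb8*), 1352 (*Psmb9*) and 1311 bases (*Psmb10*) versus 899 (*Psmb5*), 798 (*Psmb6*) and 1160 (*Psmb7*). A ratio above 1 therefore does not mean more immunoproteasome than constitutive transcripts. The difference was -0.60 on the log2 scale (exact permutation *p* = 0.33, the smallest possible here) and -0.16 without WT replicate 2. Where each subunit was instead set against its own partner and the 3 log2 ratios were averaged, which gives weight to the few reads of *Psmb7*, the difference was -0.17 and the groups overlapped (exact permutation *p* = 1). Of the transcript words of *Psmb5*, 71.7% also occurred in other gene models.

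**Figure D2:**
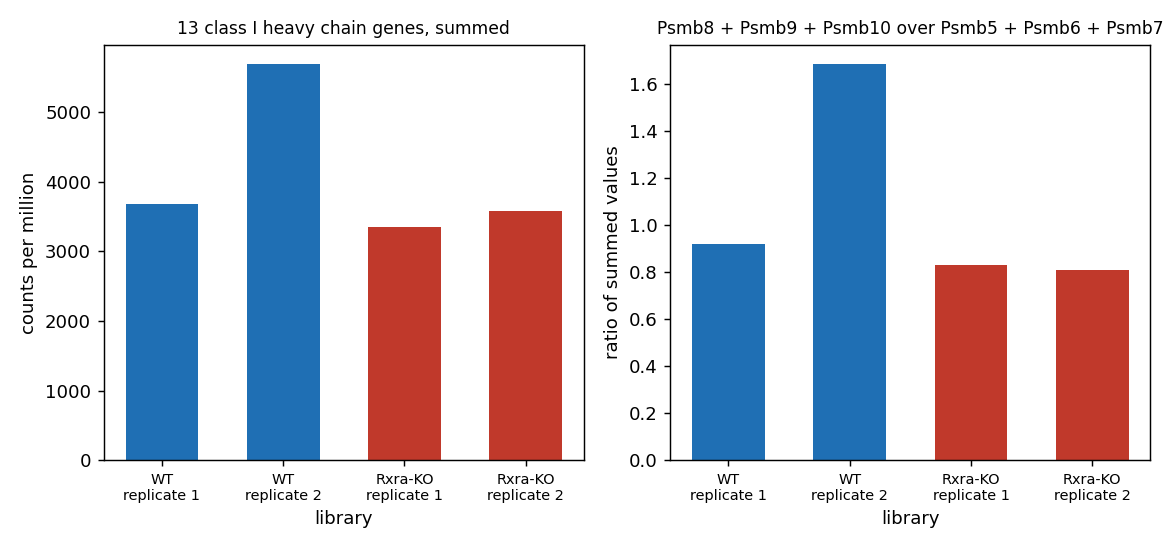
Bars for each library, with axes from 0, of the summed CPM of 13 class I heavy chain genes (left) and of the ratio of summed immunoproteasome to summed constitutive subunit reads (right). WT replicate 2 stands apart at 5682 CPM and a ratio of 1.68, and the other 3 libraries lie between 3356 and 3673 CPM and between 0.808 and 0.917.

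*Nlrc5*, the transactivator of class I genes, was the least abundant member. It had 12.9 and 27.7 in WT versus 20.3 and 14.4 in Rxra-KO, from 8 to 25 reads a library. The Rxra-KO values lay within the WT range, and the log2 fold change of *Nlrc5* was -0.14 with a wide 95% interval of -1.16 to 0.88 (limma adjusted *p* = 0.981). The log2 fold change of *Tap1* (-1.25, 95% interval -1.88 to -0.63) lay just beyond the lower end of this interval, and that of *Psmb8* lay within it. The intervals of *Nlrc5* and *Tap1* overlapped, and log2(value + 1) understates changes of low genes. A fall of *Nlrc5* as large as that of *Tap1* is thus not excluded.

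Levels were compared between genes per kilobase of exon (GENCODE M21 models). In WT the order was *H2-K1* (mean of 1081 per kb), *B2m* (881), *H2-D1* (792), *Psmb8* (264), *Psmb9* (155), *Tapbp* (69.3), *Tap1* (40.0), *Tap2* (29.3), *Psmb10* (27.9) and *Nlrc5* (2.50). The WT values of *H2-K1*, *B2m* and *H2-D1* overlapped with each other, as did those of *Psmb8* with *Psmb9*, of *Tapbp* with *Tap1*, and of *Tap1*, *Tap2* and *Psmb10*. In Rxra-KO *H2-K1* was again first (753) and *Nlrc5* last (2.14), while *Tap1* moved below *Psmb10* and *Tap2*, to a mean of 16.6 per kb against 22.7 and 18.8. The Rxra-KO values of these 3 genes overlapped, as did those of *H2-K1*, *H2-D1* and *B2m*, while those of *Psmb8* and *Psmb9* did not.

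The spread between the WT replicates was a shared feature of the members. WT replicate 2 was above WT replicate 1 for 10 of 10 members, by 1.28 (*Tap2*) to 2.37 times (*Psmb8*) with a median of 1.89, whereas over the 10049 genes with a mean value of at least 10 it was above for 51.68% and the median ratio was 1.02. Between the Rxra-KO replicates, replicate 2 was above replicate 1 for 7 of 10 members, with a median ratio of 1.25. MHC class II genes showed the same order more steeply. All 7 class II genes in the table were higher in WT replicate 2 than in WT replicate 1, with a median ratio of 6.22, and 6 of 7 were the highest there. All 7 were also higher in Rxra-KO replicate 2 than in Rxra-KO replicate 1, with a median ratio of 2.54. Their summed level was 479.7 and 2831 CPM in WT versus 265 and 760.3 CPM in Rxra-KO, and *H2-Ab1* had 241 and 2289 reads in WT versus 106 and 614 in Rxra-KO, in cells gated as negative for the protein. It was the only called class II gene of the 7 (log2 fold change -1.60, limma adjusted *p* = 2.4e-06), although its groups overlapped. Markers of small peritoneal macrophages and dendritic cells were lower in sum than class II in WT, but higher in Rxra-KO (582 and 833 CPM). Those of B cells and of T and NK cells were lower in sum than class II in every library. The 6 B cell markers measured summed to 24.5 and 17.9 CPM in WT versus 41.3 and 26.7 CPM in Rxra-KO. By log2 fold change 3 of them were lower and 3 higher in Rxra-KO, and none was called. The 7 T and NK cell markers summed to 103 and 85.5 CPM in WT versus 121 and 78.3 CPM in Rxra-KO. Of the T and NK cell markers, *Cd8a* had 40 and 39 reads in WT versus 28 and 35 in Rxra-KO, *Cd3d* had 20 and 21 versus 21 and 25, and *Cd2*, which had no read in WT and 11 and 6 reads in Rxra-KO, was called higher (limma adjusted *p* = 0.0277). The part of the class II shift in the class I values was not tested.

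**Figure D3:**
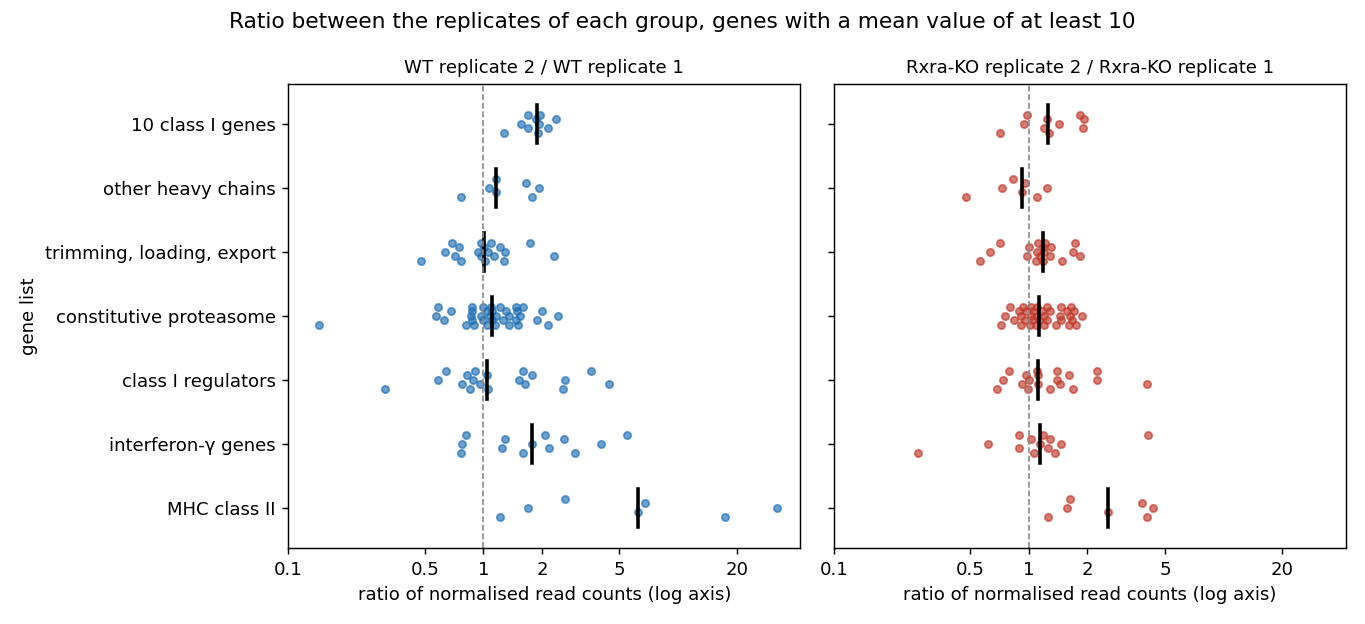
Ratio of replicate 2 to replicate 1 within WT (left) and within Rxra-KO (right) for each gene of 7 lists with a mean value of at least 10, on a log axis, with a black bar at the median of each list and a dashed line at 1. In WT the 10 class I genes all lie above 1 with a median of 1.89 and MHC class II genes reach 32.2. Interferon-γ genes have a median of 1.78 and constitutive proteasome genes have a median of 1.10.

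Each library was therefore left out in turn. Without WT replicate 2, none of the 10 members was called (1 had an unadjusted *p* under 0.05 in limma, as 8.76% of all genes did), where 0.381% of all genes were called lower. Then 5 of the members changed sign: the log2 fold change became 0.13 for *H2-D1*, 0.14 for *B2m*, 0.18 for *Tapbp*, 0.17 for *Psmb10* and 0.39 for *Nlrc5*. *Tap1* (-0.81), *Tap2* (-0.45), *Psmb9* (-0.38), *Psmb8* (-0.20) and *H2-K1* (-0.11) stayed lower without it. The median of the 10 members went from -0.41 to 0.01. Without WT replicate 1, by contrast, 3 members were called (*Tap1*, *Psmb8* and *Psmb9*; background 0.839%), and the median was -0.80. Without Rxra-KO replicate 1 no member was called (background 0.610%, 2 members and 7.16% of all genes with an unadjusted *p* under 0.05 in limma), and without Rxra-KO replicate 2 *Tap1* and *Psmb8* remained called (background 0.964%). In these fits the lone library of a group is assumed to vary like the others.

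**Figure D4:**
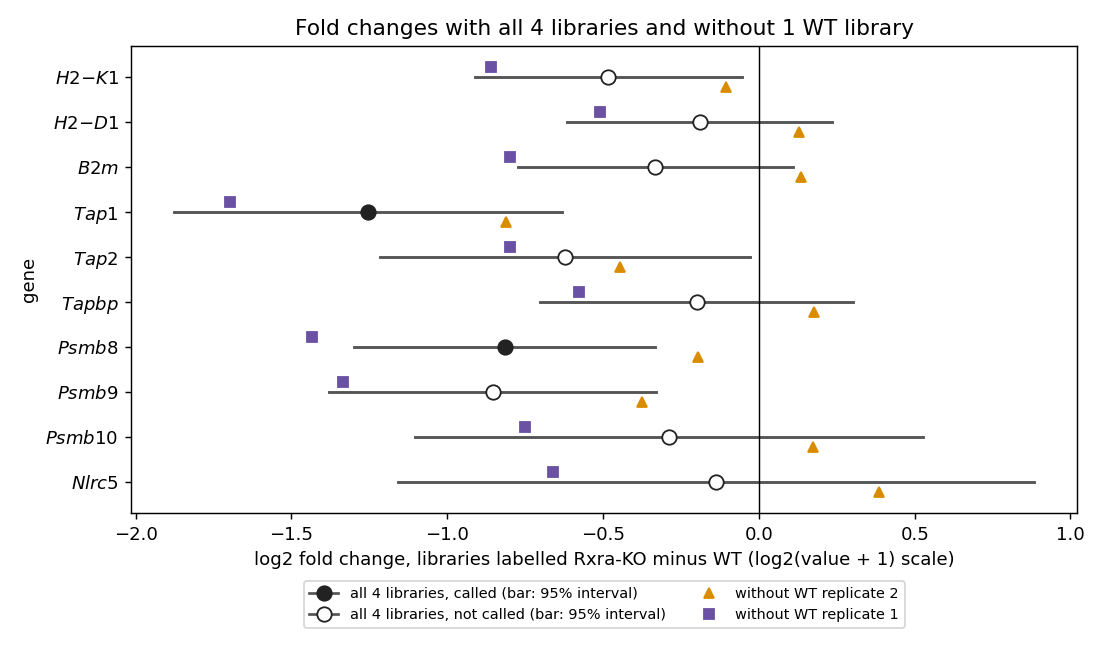
Log2 fold change of each class I gene between libraries labelled Rxra-KO and WT, with its 95% interval from limma over all 4 libraries (filled where called), and the value without WT replicate 2 (orange triangles) or without WT replicate 1 (purple squares). All 10 values lie below 0 with all libraries and without WT replicate 1, and 5 of them lie above 0 without WT replicate 2.

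The other genes of the pathway were taken from lists. Of 16 further class I heavy chain and class I-like genes in the table, 1 was called lower and 1 higher. Over all genes, 2.29% were called in either direction. *H2-T23*, which encodes Qa-1, a non-classical class I molecule read by NK cells, had normalised read counts of 746 and 1233 in WT versus 474 and 523 in Rxra-KO, with no overlap (log2 fold change -0.94, standard error 0.22, limma adjusted *p* = 0.00219). Its transcripts share 49.0% of their 31-base words with other genes, and without WT replicate 2 its log2 fold change was -0.58 and it was not called. *Fcgrt*, the class I-like Fc receptor that recycles IgG and pairs with *B2m* but presents no peptide, had 85.5 and 99.3 in WT versus 428 and 357 in Rxra-KO (log2 fold change 2.07, limma adjusted *p* = 4.93e-12). *Fcgrt* was called without any single library, including WT replicate 2 (log2 fold change 2.18). *H2-M3*, which presents formylated bacterial peptides, had 90.1 and 174 in WT versus 121 and 87.9 in Rxra-KO and was not called.

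Among 20 genes of peptide trimming, loading and export, 1 was called, against 2.29% of all genes. *Tapbpl*, which encodes the tapasin-related peptide editor TAPBPR, had 193 and 334 in WT versus 126 and 127 in Rxra-KO, giving a log2 fold change of -1.0 (SE 0.26, limma adjusted *p* = 0.00749) that became -0.61 and was not called without WT replicate 2. The median of this list was -0.09. *Npepps*, an aminopeptidase of the cytosol, had 64.3 and 64.5 in WT versus 89.6 and 106 in Rxra-KO and was not called. *Sec22b*, a vesicle fusion protein, had 113 and 110.1 in WT versus 58.0 and 107 in Rxra-KO and was not called.

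None of the 41 genes of the constitutive proteasome and its activators and assembly factors was called by limma, edgeR or DESeq2, and 7 had an unadjusted *p* under 0.05 in limma, 5 of them higher in Rxra-KO, where 1854 of all 18364 genes had one. Of the 41 genes, 30 had a log2 fold change above 0, as did 51.1% of all genes, and the list median was 0.19. The largest log2 fold changes at a mean value of at least 10 were those of 3 subunits of the regulatory particle, *Psmd8* (1.88, from 7 and 1 reads in WT versus 10 and 25 in Rxra-KO), *Psmc5* (0.71) and *Psmd14* (0.66). Their limma adjusted *p* values were 0.148, 0.112 and 0.193.

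Of 22 regulators of class I genes, 2 were called lower, against 0.969% of all genes. *Irf1*, a transcription factor induced by interferon that acts on class I promoters, had 132 and 340.1 in WT versus 88.1 and 98.8 in Rxra-KO, giving a log2 fold change of -1.18 (SE 0.27, limma adjusted *p* = 0.00188). As with the members, WT replicate 2 was the highest, and without it the log2 fold change of *Irf1* was -0.50 and it was not called. *Ezh2*, a histone methyltransferase known to repress class I genes, had 90.1 and 145 in WT versus 38.4 and 62.1 in Rxra-KO (log2 fold change -1.21, limma adjusted *p* = 0.00831). It was not called without WT replicate 2 or without Rxra-KO replicate 1, with a log2 fold change of -0.87 in each case. *Nfya*, a subunit of the factor that binds the Y box, had 14.4 and 9.22 in WT versus 21.8 and 24.3 in Rxra-KO and was not called. The list median was 0.04.

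Among 22 interferon-γ receptor, signalling and target genes, 2 were called lower, against 0.969% of all genes, and the list median was -0.26. *Gbp3*, a guanylate-binding protein, had 397 and 707 in WT versus 177 and 203 in Rxra-KO (log2 fold change -1.48, limma adjusted *p* = 4.16e-07). *Iigp1*, an immunity-related GTPase, had 22 and 92 reads in WT versus 2 and 15 in Rxra-KO (log2 fold change -2.75, limma adjusted *p* = 7.94e-06). *Gbp9*, with 6 and 49 reads in WT versus 8 and 3 in Rxra-KO, was not called (limma adjusted *p* = 0.199). Without WT replicate 2 neither *Gbp3* (log2 fold change -1.06, adjusted *p* = 0.0516) nor *Iigp1* (-1.99, adjusted *p* = 0.156) was called, and 2 of the 22 genes had an unadjusted *p* under 0.05 in limma, against 8.76% of all genes. WT replicate 2 gave the highest value for 12 of these 22 genes, and for 25.6% of all genes. It was above WT replicate 1 for 10 of the 13 with a mean value of at least 10, with a median ratio of 1.78, close to that of the members.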

How the data were processed

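RNA-seq libraries had been prepared by the authors with the SMART-Seq v4 kit, which carries no molecular identifiers. Per the methods of the study, they were quantified with kallisto 0.43.0 and tximport and tested with limma after TMM scaling. GRCh38 is named as the build although the symbols are mouse. Which reference and counter gave the deposited reads was not settled here. The deposited values are a normalised read signal, (reads + 0.5) divided by the scaled library size, from which whole reads were recovered for 100% of values (tolerance 0.001). Recovered depth was 652542 and 947372 reads for WT versus 629030 and 1047021 for Rxra-KO. Since PCR copies cannot be told from molecules, precision from depth covers counting error only. Each gene was fitted on log2(value + 1), which understates changes of low genes, with limma 3.58.1 (R 4.3.3, mean-variance trend, two-sided, Benjamini-Hochberg over 18364 genes). The filter, a value of 1 or more in 2 or more libraries, left out no gene. The spread rests on 227 prior against 2 residual degrees of freedom. Alternatives were other pseudocounts, filters and scalings, voom, edgeR 4.0.16 and DESeq2 1.42.0 on the recovered reads, a replicate block and each library left out. The study excluded RNA-seq samples that did not cluster with their group, and these were not analysed here. Scripts were tested on simulated data. Sums of genes are CPM of recovered reads without a scaling factor. Replicates are numbered as in the titles. Promoter windows came from RefSeq (GRCm38.p6), and transcript words and exon lengths from GENCODE M21. Named are the 10 members, *Psmb5*, *Psmb6*, *Psmb7* and, from each pathway list, up to 6 called genes and the 3 with the largest absolute log2 fold change at a mean value of at least 10, and markers. The members and lists were chosen with earlier results of these data known. Class I genes missing under their listed symbols were not analysed here (6 heavy chains and 4 interferon-γ targets), and *Adgre1* stood in the table under an older symbol.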

Additional observations from a re-analysis of the deposited data

How the results depend on the processing

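Directions of the members held under every change of pseudocount, filter, scaling or tool that was run, and they changed only where a library was left out. With libraries left out, log2 fold changes ranged from -0.51 to 0.13 for *H2-D1*, -0.80 to 0.14 for *B2m*, -0.58 to 0.18 for *Tapbp*, -0.75 to 0.17 for *Psmb10* and -0.66 to 0.39 for *Nlrc5*, and the median of the members from -0.80 to 0.0106. *H2-D1*, *B2m* and *Tapbp* turned only without WT replicate 2, *Psmb10* also without Rxra-KO replicate 1 (0.17) and *Nlrc5* also without Rxra-KO replicate 2 (0.10). Leaving out libraries gave 236 to 377 calls over all genes, 0 to 3 among the members, 1 to 2 among the other heavy chains, 0 to 1 among trimming, loading and export genes, 0 to 1 in the constitutive proteasome, 0 to 2 among regulators and 0 to 4 among interferon-γ genes.

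Calls over all genes went from 421 to 245 with CPM and no scaling factor, 43 with quantile normalisation, 246 with DESeq2 and 0 without a mean-variance trend, where 1579 genes had an unadjusted p under 0.05 in limma. Called members went from 2 to 1 at a mean value of at least 10 or an adjusted p under 0.01, and to 0 with CPM, quantile normalisation, DESeq2 or no trend (5, 3, 3 and 0 members with an unadjusted p under 0.05, against 9.5%, 8.82%, 3.96% and 8.6% of all genes). CPM gave 0 calls among trimming genes and 0 among regulators; quantile normalisation gave 1 among the other heavy chains and 0 among trimming genes, regulators and interferon-γ genes; DESeq2 gave 1 among regulators; and the fit without a trend gave 0 in each list. The cause of these losses was not tested.

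With a replicate block, 540 genes were called over all genes, 3 members (*Psmb9* was added, limma adjusted p = 0.0151), 1 constitutive proteasome gene (*Psmc5*) and 3 interferon-γ genes, and no call among the members was lost. The labels share only a number, and over all genes same-numbered libraries did not deviate together (r = 0.06 across 10049 genes, which are not independent replicates). The 7 MHC class II genes, however, were all higher in replicate 2 in both groups, with median ratios of 6.22 in WT and 2.54 in Rxra-KO. For the members this held for 10 of 10 in WT and 7 of 10 in Rxra-KO. Depth limits *Nlrc5* and *Psmb10* most, and a p that missed the threshold does not show that a gene was unchanged.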
